A study of Mus musculus with 4 samples.

Results

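Granzymes and perforin are the proteins with which killer lymphocytes destroy target cells, and their 10 genes were followed here: Gzma, Gzmb, Gzmc, Gzmd, Gzme, Gzmf, Gzmg, Gzmk, Gzmm and Prf1. They were chosen by name among the 21959 genes listed for each cell type, and all 10 were found. Cytotoxic CD8+ T cells and natural killer (NK) cells store these proteins in secretory granules and release them onto the cell they recognise. Perforin forms pores in the target membrane, through which the granzymes, a family of serine proteases, enter and cleave proteins that trigger cell death. In mice, Gzmb, Gzmc, Gzmd, Gzme, Gzmf, Gzmg and Gzmn lie side by side on chromosome 14, Gzma and Gzmk are neighbours on chromosome 13, and Gzmm and Prf1 are on chromosome 10.

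RNA came from MC38 tumours, a mouse colon carcinoma model, 72 h after the second treatment. The groups were CD3+ T cells from tumours given X-Ray+O-IMDQ, CD3+ T cells from tumours given PBS, dendritic cells (DCs) from tumours given X-Ray+O-IMDQ and DCs from tumours given PBS. X-Ray+O-IMDQ combines X-ray with O-IMDQ, and the series describes a prodrug activated by radiotherapy. The treated and PBS groups thus differ in both, and libraries of X-ray alone or O-IMDQ alone were not analysed here. The sources used here do not say whether mice were pooled, how the DCs were sorted, or the strain, sex and age of the mice. Every group is a single library (n = 1), so nothing here has a replicate check. Differences are between single libraries and carry no p-value.

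The libraries held 18463944 counts (treated T cells), 18649824 (PBS T cells), 14056428 (treated DCs) and 23797357 (PBS DCs). Many genes were present in only 1 library of a pair. Of 8220 genes with at least 100 counts in treated T cells, 104 had none in PBS T cells, and in the other direction 342 of 8607 had none. Among DCs the same counts were 213 of 6476 and 942 of 7857. FPKM, the count divided by gene length and library total, allows levels of different genes to be compared. The T cell libraries held their defining markers, mostly those of CD8+ cells. Cd3d stood at 1515 FPKM in treated T cells and 1920 FPKM in PBS T cells, Cd8a at 708 and 686 FPKM, and Cd4 at 3.38 and 0.226 FPKM. In the DC libraries Itgax, which encodes CD11c, had 52.5 FPKM with treatment and 34.8 FPKM with PBS, while among the conventional DC markers Zbtb46 (0.477 FPKM with treatment and 0.0445 FPKM with PBS) and Flt3 (0.795 FPKM with treatment and 0.109 FPKM with PBS) were low and Clec9a had 20.6 FPKM with treatment and 1.97 FPKM with PBS. The 8 conventional DC markers were all detected and summed to 989 CPM in treated DCs and 1093 CPM in PBS DCs. Of the 8, 4 were at least 2-fold higher in treated DCs and 2 at least 2-fold lower. By the same measure, 30.2% of all DC genes with at least 20 counts in either library were higher and 41.8% lower. Cd209a and Ccr7 were the lower markers, at 14.8 and 49.7 FPKM in treated DCs and 251 and 176 FPKM in PBS DCs. Together, 8 macrophage markers reached 1747 CPM (counts scaled to equal library totals) in treated DCs and 7727 CPM in PBS DCs.

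The regulatory DNA just upstream of these genes is shown first, because 5 members of the chromosome 14 cluster that were all at lower values in treated T cells share most of it. Gzmc (chr14:56234658-56234762), Gzmd (chr14:56132598-56132702), Gzme (chr14:56120631-56120735), Gzmf (chr14:56211433-56211537) and Gzmg (chr14:56159600-56159704) could be aligned without gaps over 105 bases before the transcription start. The sequences are from RefSeq on GRCm38.p6, minus strand, written 5′ to 3′ with any match to TGACGT, the core of the CREB/ATF recognition site, in capitals on either strand.
Gzmc: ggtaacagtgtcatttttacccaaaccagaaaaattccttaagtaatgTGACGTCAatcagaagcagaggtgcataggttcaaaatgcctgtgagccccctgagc
Gzmd: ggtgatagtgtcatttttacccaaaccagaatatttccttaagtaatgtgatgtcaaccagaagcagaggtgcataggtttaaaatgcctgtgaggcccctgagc
Gzme: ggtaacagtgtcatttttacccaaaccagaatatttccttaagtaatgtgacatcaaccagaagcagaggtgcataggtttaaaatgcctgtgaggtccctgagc
Gzmf: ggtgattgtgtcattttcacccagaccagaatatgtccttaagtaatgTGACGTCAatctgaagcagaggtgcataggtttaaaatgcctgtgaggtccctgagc
Gzmg: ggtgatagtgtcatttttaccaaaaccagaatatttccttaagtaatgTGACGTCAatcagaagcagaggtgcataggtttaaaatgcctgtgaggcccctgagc

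Against Gzmc the block differed at 8 bases in Gzmd, 7 in Gzme, 12 in Gzmf and 7 in Gzmg. Counting from 1 at the first base of the block, C52T removed the TGACGT match in Gzmd and G53A removed it in Gzme. In Gzmc, Gzmf and Gzmg overlapping matches on the 2 strands make up the palindrome. The promoter of Prf1 also held a match, 92 to 87 bases before its start. In all, 6.47% of 32851 RefSeq promoter windows of the same 250 bases hold TGACGT on either strand. Of the 3 genes with the palindrome, Gzmf was called lower in T cells, and Gzmc and Gzmg were not. Gzmd and Gzme, without it, were both called lower.

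The promoters of Gzma and Gzmb, the 2 most abundant granzymes in treated T cells, and of Gzmm, the member with the widest T cell ratio, are printed for comparison. Each is the 250 bases before the start in GRCm38.p6, chr13:113100982-113101231 (minus strand) for Gzma, chr14:56262335-56262584 (minus strand) for Gzmb and chr10:79688770-79689019 (plus strand) for Gzmm, the first of its 2 listed promoters. Capitals mark TGTGGT (RUNX, either strand) and TGANTCA (AP-1, either strand).
Gzma: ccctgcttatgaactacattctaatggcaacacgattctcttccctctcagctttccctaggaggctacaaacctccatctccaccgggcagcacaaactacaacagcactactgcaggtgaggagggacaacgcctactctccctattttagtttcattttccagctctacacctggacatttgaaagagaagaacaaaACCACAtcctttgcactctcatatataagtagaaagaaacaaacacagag
Gzmb: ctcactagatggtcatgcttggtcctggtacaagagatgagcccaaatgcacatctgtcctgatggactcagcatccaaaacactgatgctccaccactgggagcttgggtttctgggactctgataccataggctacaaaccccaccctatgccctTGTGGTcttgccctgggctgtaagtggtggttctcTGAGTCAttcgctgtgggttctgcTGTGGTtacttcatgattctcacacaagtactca
Gzmm: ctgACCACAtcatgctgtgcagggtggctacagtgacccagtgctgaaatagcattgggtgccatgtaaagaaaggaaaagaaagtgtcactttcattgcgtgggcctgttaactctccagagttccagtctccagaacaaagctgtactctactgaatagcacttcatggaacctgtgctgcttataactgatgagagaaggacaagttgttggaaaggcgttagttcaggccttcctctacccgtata

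Gzmb held 2 RUNX matches, 93 to 88 and 34 to 29 bases before the start, around an AP-1 match 58 to 52 bases before it. Gzma held 1 RUNX match, 50 to 45 bases before the start, and a match to GAAANNGAAA, the core of the interferon-stimulated response element (ISRE), 97 to 88 bases before it. Gzmm held 1 RUNX match, 247 to 242 bases before the start. It also held TTCATGGAA, a match to the STAT motif TTCNNNGAA, 86 to 78 bases before the start. The other listed Gzmm promoter held 0 RUNX and 0 STAT matches and 1 match to the T-box motif TCACAC. Gzmb held 1 T-box match and Gzmk 2. Gzmb was the only one of the 10 members with an AP-1 match in this window. RUNX matches were not particular to these 3 genes. Gzmc, Gzmd, Gzme, Gzmf and Gzmg each held 2 in the same window, not marked in the block above. Prf1 held 1 and Gzmk 0. RUNX matches stood in 14% of all promoter windows, T-box matches in 12.3%, AP-1 matches in 6.75%, STAT matches in 7.02% and ISRE matches in 2.98%. Matches to the ETS motif AGGAAG, found in 29.5% of windows, are not listed here. A match is a description of letters and not evidence of binding.

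**Figure D1:**
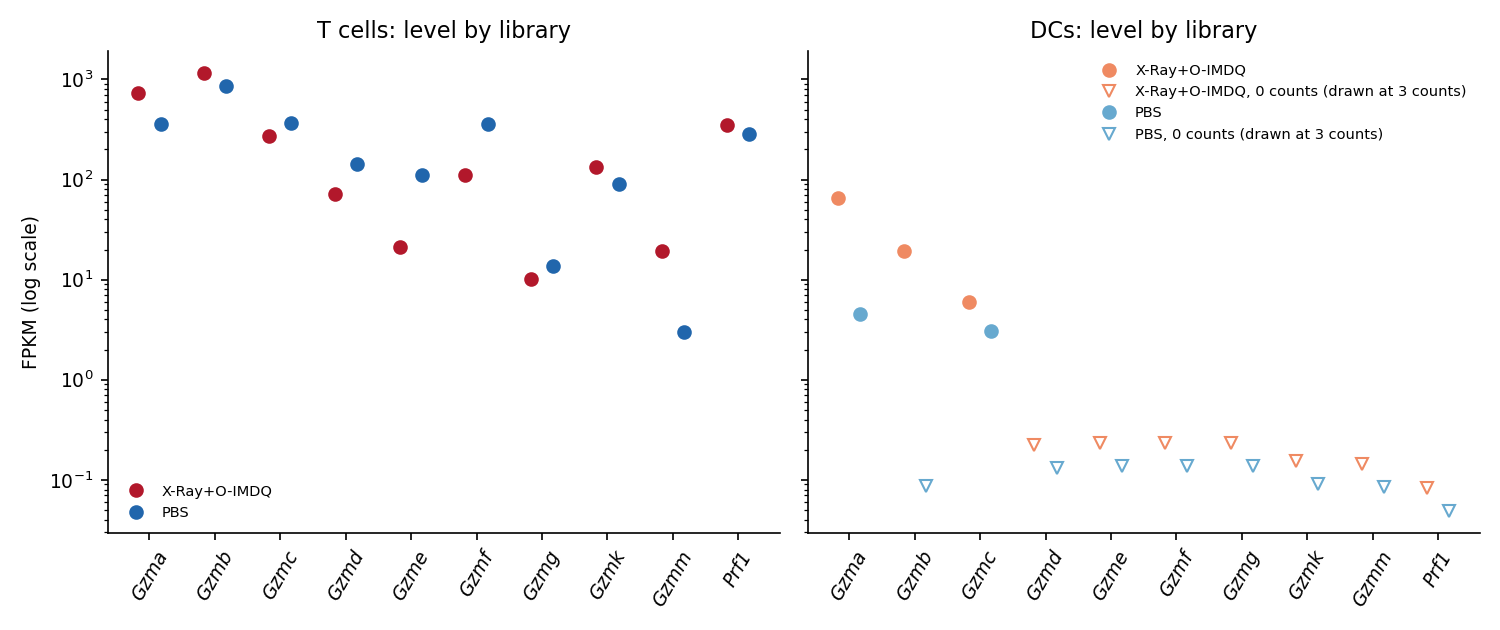
Level of each gene in FPKM on a log scale, in T cells (left) and DCs (right), with X-Ray+O-IMDQ left of PBS for each gene and 1 library per point; open triangles mark 0 counts, drawn at the level of 3 counts. All 10 genes were detected in both T cell libraries, while in DCs only Gzma, Gzmb and Gzmc were above 0.

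In T cells the comparison asks how the treatment bore on the killing machinery of tumour-infiltrating lymphocytes. The summed level of the 9 granzymes was 2543 FPKM in treated T cells and 2308 FPKM in PBS T cells, so the family total was similar while its make-up differed. Gzma and Gzmm were higher in the treated library, Gzmd, Gzme and Gzmf were lower, and Gzmb, Gzmc, Gzmg, Gzmk and Prf1 were less than 2-fold apart. Calls needed scaled counts at least 2-fold apart, a 95% counting interval that excluded a ratio of 1, and at least 20 counts in either library. All 10 members had enough counts. Over all 11058 genes with enough counts, 18.3% were called higher and 25.4% lower (43.7% in either direction), so 2 and 3 calls among 10 members are close to the background. The median log2 ratio was -0.08 over the members and -0.07 over all genes. Fewer cells of a type and less RNA per cell cannot be told apart in such bulk samples. The intervals cover counting error only, because each group has 1 library and replicate spread cannot be seen. Amplified reads without molecular identifiers do not each stand for 1 molecule, so even that error may be wider than shown.

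Prf1 (ENSMUSG00000037202, chromosome 10, 61133612 to 61140459), the pore-forming protein, had 352 FPKM in treated T cells (16811 counts) and 283 FPKM in PBS T cells (13630 counts). Its log2 ratio of treated over PBS was 0.29, with an interval from 0.26 to 0.32. It ranked 201 by FPKM among 10758 detected genes in treated T cells and 294 among 12046 in PBS T cells. The pore component was therefore among the abundant transcripts of both libraries, which lay less than 2-fold apart.

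Gzmb (ENSMUSG00000015437, chromosome 14, 56496295 to 56499717) encodes the protease that cleaves after aspartate and activates caspases and Bid. It was the most abundant granzyme in both libraries, at 1168 FPKM in treated T cells (30977 counts) and 859 FPKM in PBS T cells (23002 counts). The log2 ratio was 0.42 (0.39 to 0.44), short of 2-fold. Prf1 and Gzmb kept a similar proportion to each other, at 0.302 Prf1 FPKM per Gzmb FPKM in treated T cells and 0.329 in PBS T cells. Per FPKM of Cd8a, Gzmb stood at 1.65 in treated T cells and 1.25 in PBS T cells.

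Gzma (ENSMUSG00000023132, chromosome 13, 113230359 to 113237515), a tryptase that cleaves after basic residues, had 734 FPKM in treated T cells (13640 counts) and 357 FPKM in PBS T cells (6692 counts). That is 2.02-fold higher (1.96 to 2.08), close to the 2-fold threshold. Scaling was by trimmed mean of M-values (TMM), and by upper-quartile scaling the log2 ratio was 0.92 and Gzma was not called. Gzmb per Gzma stood at 1.59 in treated T cells and 2.41 in PBS T cells. Gzma ranked 76 by FPKM in treated T cells and 230 in PBS T cells.

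Gzmk (ENSMUSG00000042385, chromosome 13, 113308142 to 113362442) is a second tryptase and the neighbour of Gzma, and is used as a marker of T cells with memory-like or transitional states. It had 132 FPKM in treated T cells (3385 counts) and 91.1 FPKM in PBS T cells (2361 counts). Its log2 ratio of 0.51 (0.43 to 0.58) pointed the same way as that of Gzma but stayed under 2-fold.

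Gzmm (ENSMUSG00000054206, chromosome 10, 79524854 to 79531095), which cleaves after methionine and leucine, showed the widest separation of the members in T cells. It had 19.3 FPKM in treated T cells (524 counts) and 3.02 FPKM in PBS T cells (83 counts). That is 6.26-fold higher (4.96 to 7.99). This call held at the 4-fold threshold and under each scaling tried. Of all genes tested in T cells, 93.1% had a lower ratio. Gzmm remained a minor part of the family, at 0.758% of the summed granzyme FPKM in treated T cells and 0.131% in PBS T cells.

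**Figure D2:**
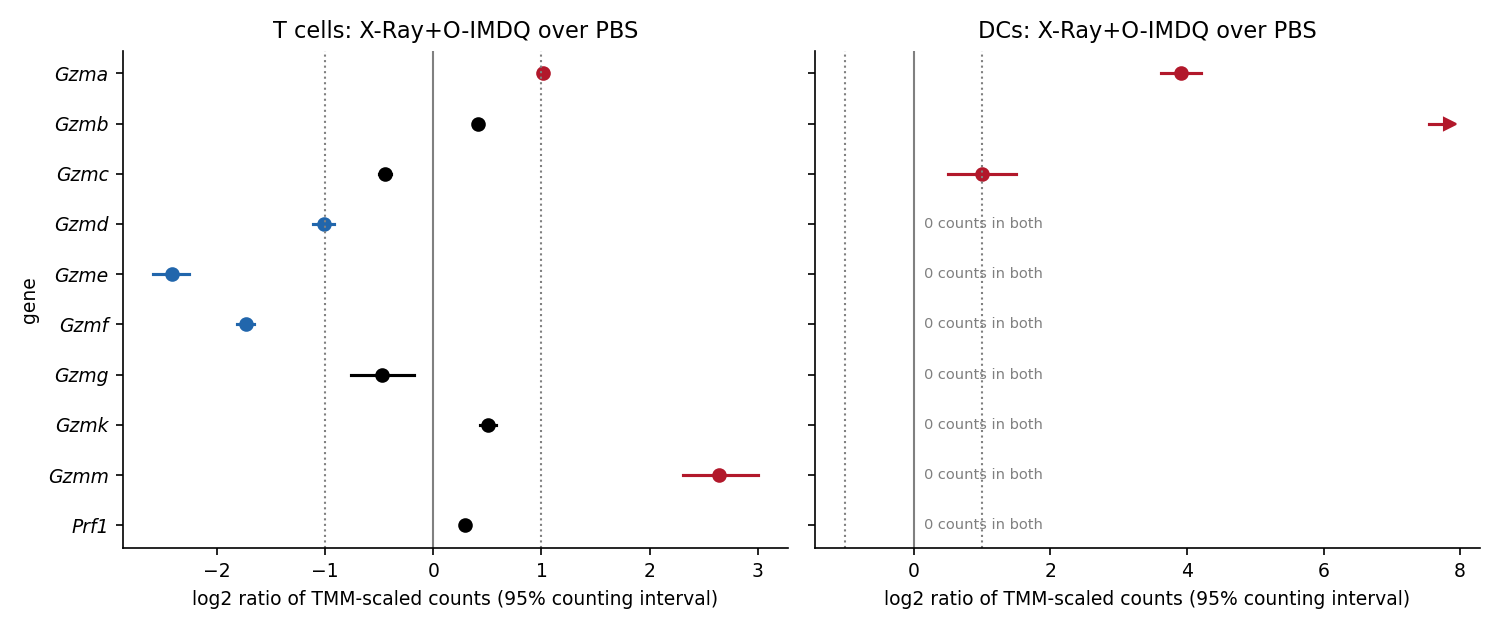
Log2 ratio of X-Ray+O-IMDQ over PBS for each gene, in T cells (left) and DCs (right); points are ratios of TMM-scaled counts, bars 95% counting intervals, dotted lines 2-fold, red called higher, blue called lower and black neither, and the arrowhead a bound. Gzma and Gzmm lie right of the 2-fold line in T cells, and Gzmd, Gzme and Gzmf left of it.

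The remaining 5 members, Gzmc to Gzmg, are rodent granzymes with fewer known substrates, and their products are found in strongly or repeatedly stimulated mouse killer cells. All 5 had log2 ratios below 0 in T cells, under each scaling tried. Summed over the 5, they reached 489 FPKM in treated T cells and 998 FPKM in PBS T cells, or 19.2% and 43.2% of the granzyme total. These genes sit in a 145 kb stretch of chromosome 14 from 56355083 to 56499717, all on the minus strand, with Gzmb at its upper end.

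Gzme (ENSMUSG00000022156, chromosome 14, 56355083 to 56358082) is the outermost of the cluster genes and was the furthest below its PBS level. It had 21 FPKM in treated T cells (355 counts) and 110 FPKM in PBS T cells (1882 counts). Its log2 ratio was -2.42 (-2.59 to -2.25), and Gzme was called lower at the 4-fold threshold too. Of all genes tested, 14.6% lay lower still.

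Gzmf (ENSMUSG00000015441, chromosome 14, 56442720 to 56448874) had 111 FPKM in treated T cells (1879 counts) and 362 FPKM in PBS T cells (6202 counts). Its log2 ratio was -1.74 (-1.81 to -1.66). In PBS T cells Gzmf, Gzmc and Gzma thus stood at nearly the same level, at 15.7%, 16.0% and 15.5% of the granzyme total. In treated T cells they were spread over 4.35%, 10.8% and 28.9%.

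Gzmd (ENSMUSG00000059256, chromosome 14, 56367013 to 56370065) had 72.5 FPKM in treated T cells (1290 counts) and 143 FPKM in PBS T cells (2577 counts). With a log2 ratio of -1.01 (-1.11 to -0.91) it was at the threshold. It was not called by total-count CPM at -0.98, with the all-gene median set to 0, at -0.94, or when counts were scaled to the summed Cd3d, Cd3e and Cd3g counts at -0.73.

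Gzmc (ENSMUSG00000079186, chromosome 14, 56468898 to 56472113) was the most abundant of the 5, at 275 FPKM in treated T cells (4542 counts) and 369 FPKM in PBS T cells (6148 counts). Gzmg (ENSMUSG00000040284, chromosome 14, 56394039 to 56397036) was the scarcest, at 10.1 FPKM in treated T cells (169 counts) and 13.7 FPKM in PBS T cells (232 counts). Their log2 ratios were -0.45 (-0.51 to -0.39) and -0.47 (-0.76 to -0.18), and neither was called. Gzmn, which lies between Gzmf and Gzmg and is not a member, had 0 counts in all 4 libraries.

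**Figure D3:**
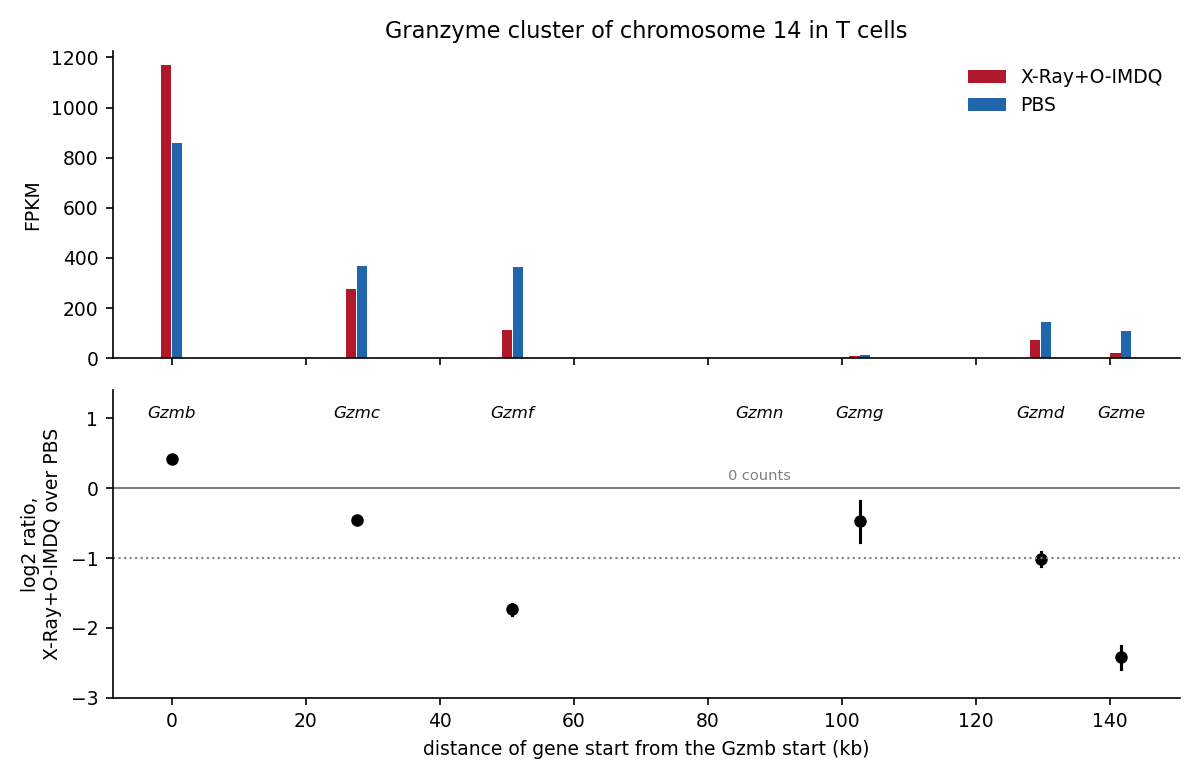
The chromosome 14 granzyme cluster in T cells, with each gene placed at the distance of its start from that of Gzmb in kb; upper panel, FPKM in the X-Ray+O-IMDQ library (red) and the PBS library (blue); lower panel, log2 ratio with its 95% counting interval. Gzmb is the only gene of the cluster above 0, and Gzme, 142 kb away, the lowest.

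Scaling moved these values without turning any member's direction. Scaling to the Cd3 genes raised the median of all T cell ratios to 0.21, and the share of calls that were higher to 52.6%, against 41.9% by TMM. Near-identical transcripts set a further limit on the cluster genes. The transcripts of Gzmd and Gzme were 94.8% identical over aligned bases, Gzme and Gzmg 90.8%, and Gzmd and Gzmg 90.5% (GENCODE M21). Of 50-base windows, 21.9% of those in Gzmd, 20.6% in Gzme, 19.8% in Gzmg, 7.36% in Gzmf and 4.14% in Gzmc also occurred in a transcript of another gene. Windows of 100 bases were shared in 0.231% for Gzmd and 0.247% for Gzmg, and none were shared in Gzmc, Gzme or Gzmf. Read length and the handling of reads with several matches are unstated in the sources used here, so counts of Gzmd, Gzme and Gzmg are uncertain among each other. Gzma, Gzmb, Gzmk, Gzmm and Prf1 shared no 50-base window with any other gene.

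**Figure D4:**
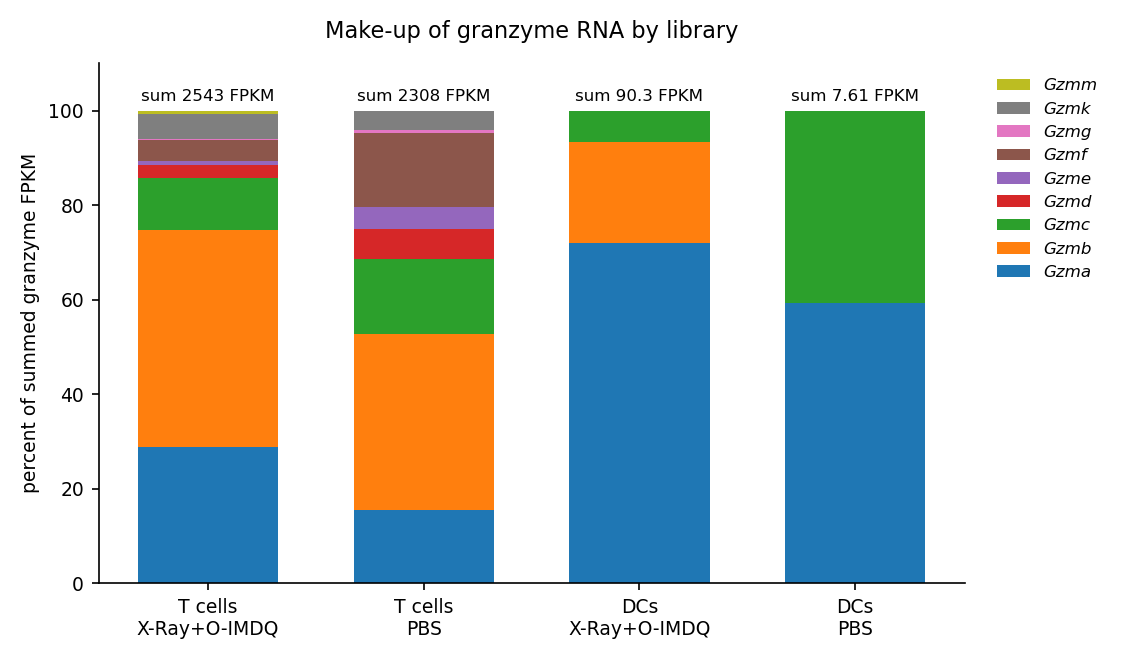
Make-up of granzyme RNA, as the percent of summed granzyme FPKM, in the treated and PBS T cell libraries and then the treated and PBS DC libraries, with the sum above each bar. Gzma and Gzmb take a larger part in treated T cells than in PBS T cells, and Gzmd, Gzme and Gzmf a smaller one.

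Other proteases of the same chromosomal neighbourhood had no counts in the treated T cell library. Cma1 and Mcpt8, granule proteases of mast cells and basophils, had 0 counts in treated T cells and 388 and 296 in PBS T cells. Ctsg, a protease of myeloid granules, and Mcpt2 had 0 counts in treated T cells and 122 and 25 in PBS T cells. Ctsg is the nearest of them to the granzymes, with its start 160 kb from that of Gzmb and beyond Gzme. These 4 had enough counts only through the PBS library, so with 0 in treated T cells lower was the only call possible. Mcpt1 and Mcpt4 had 0 counts in both libraries. Over all T cell genes tested, 18.3% were called higher and 25.4% lower, the background for each count of calls in this paragraph. Of 9 mast cell and basophil markers, which include Cma1 and Mcpt8, 5 were at 0 in both T cell libraries (Fcer1a, Mcpt4, Ms4a2, Tpsab1 and Tpsb2). Of the 9, 3 had enough counts, with 1 called higher (Kit) and 2 lower (Cma1 and Mcpt8). Kit had 354 counts in treated T cells and 113 in PBS T cells, a log2 ratio of 1.63. The 9 summed to 19.2 CPM in treated T cells and 43.4 CPM in PBS T cells, with Kit alone making up the treated sum. Of 9 markers of NK cells and innate lymphocytes, 7 had enough counts in T cells, with 1 higher (Eomes), 2 lower and 4 neither, and Ncr1 and Klra8 were at 0 in both libraries. Their sum was 1765 CPM in treated T cells and 1751 CPM in PBS T cells. The lower ones were Klrb1c, with 0 counts in treated T cells and 140 in PBS T cells, and Itga2, with 46 and 219. Of 5 regulatory T cell markers 0 were higher and 2 lower, Foxp3 with 0 counts in treated T cells and 99 in PBS T cells and Ikzf2 with 55 and 354. The other 3, Ctla4, Il2ra and Ccr8, were more abundant and less than 2-fold apart. All 5 together summed to 961 CPM in treated T cells and 832 CPM in PBS T cells. Of 8 macrophage markers 0 were higher and 3 lower, among them Adgre1 with 0 counts in treated T cells and 334 in PBS T cells, and the 8 summed to 272 CPM and 255 CPM. The part of such cells in the granzyme differences was not tested.

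Genes that load, move, restrain and complement granzymes were read from lists of 92 listed genes in the tables, of which 87 had enough counts in T cells. Of these, 10 were called higher and 9 lower, where over all T cell genes tested 18.3% were higher and 25.4% lower. These shares are the background for this total and for each list in T cells. Their median log2 ratio was 0.26, beside -0.07 over all genes tested. Among the 8 genes of granzyme processing and the granule matrix 0 were higher and 1 was lower. Srgn, the proteoglycan that holds granzymes in the granule, had 623 FPKM in treated T cells and 459 FPKM in PBS T cells. Ctsc, which removes the propeptide of granzymes, had 75.0 FPKM and 69.8 FPKM in the same order. Cst7, an inhibitor of Ctsc, had 650 FPKM in treated T cells and 793 FPKM in PBS T cells. These 3 genes were less than 2-fold apart. Ctsl, a lysosomal cysteine protease, had 121 counts in treated T cells and 1246 in PBS T cells, a log2 ratio of -3.38.

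For granule transport and release, 2 of 10 genes were higher and 1 was lower in T cells. Stx11, a membrane-fusion protein needed for granule release, had 19.7 FPKM in treated T cells and 6.79 FPKM in PBS T cells, a log2 ratio of 1.51. Its partner Stxbp2 had a log2 ratio of 1.09, at 38.3 FPKM in treated T cells and 17.6 FPKM in PBS T cells, and fell just short of 2-fold by upper-quartile scaling. Both genes cause familial haemophagocytic disease in humans when mutated. Hps1, of lysosome-related organelle formation, had a log2 ratio of -1.09, and was not called when scaled to the Cd3 genes, at -0.81. Nkg7, a granule membrane protein and the most abundant gene of these lists, had 14819 FPKM in treated T cells and 17872 FPKM in PBS T cells, under 2-fold apart.

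Intracellular inhibitors of granzymes protect the killer cell itself. The list read here held 8 protease inhibitors, not all of them known for acting on granzymes. Of these 8, 2 were higher and 0 lower in T cells. Serpinb6b had 354 FPKM in treated T cells and 173 FPKM in PBS T cells, 2.01-fold higher, but was not called by upper-quartile scaling at a log2 ratio of 0.91. Serping1, the inhibitor of complement C1 esterase, had 108 counts in treated T cells and 11 in PBS T cells, a log2 ratio of 3.28. Serpinb9, the intracellular inhibitor of granzyme B, had 87.5 FPKM in treated T cells and 49.2 FPKM in PBS T cells, with a log2 ratio of 0.80.

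Of 13 other killing ligands, effector cytokines and death receptors, 1 was higher and 0 were lower in T cells. Xcl1, at a log2 ratio of -0.95, was called lower by upper-quartile scaling, at -1.04. Lta, which encodes lymphotoxin alpha, had 68.9 FPKM in treated T cells and 27.9 FPKM in PBS T cells, a log2 ratio of 1.28. Fasl, the ligand of the death receptor Fas, had 324 FPKM in treated T cells and 206 FPKM in PBS T cells. The chemokine genes Ccl4 and Ccl5 had log2 ratios of 0.12 and -0.14, at 4408 and 2647 FPKM in treated T cells and 3985 and 2861 FPKM in PBS T cells. Among 16 transcription factors of the cytotoxic programme 3 were higher and 1 was lower, beside 18.3% and 25.4% over all T cell genes tested. Prdm1, which encodes Blimp-1, and Tcf7, which encodes TCF-1, had log2 ratios of 1.45 and 1.34. Eomes, a T-box factor that drives perforin and granzyme expression, had a log2 ratio of 1.15, from 449 counts in treated T cells and 201 in PBS T cells, and was named after its values were seen. Tbx21, which encodes its relative T-bet, had a log2 ratio of 0.50, and Zfp683, which encodes Hobit, had 20 counts in treated T cells and 184 in PBS T cells.

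None of the 12 cytokine receptor genes that carry signals for granzyme expression was called in T cells, with a list median of 0.41. Il2rb had 304 FPKM in treated T cells and 294 FPKM in PBS T cells. Among 16 measured substrates and cell death genes 2 were higher and 2 lower, at a median of -0.04. Set, part of the complex cleaved by granzyme A, had a log2 ratio of 0.44. The DNase gene Dffb had 396 counts in treated T cells and 1 in PBS T cells.

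**Figure D5:**
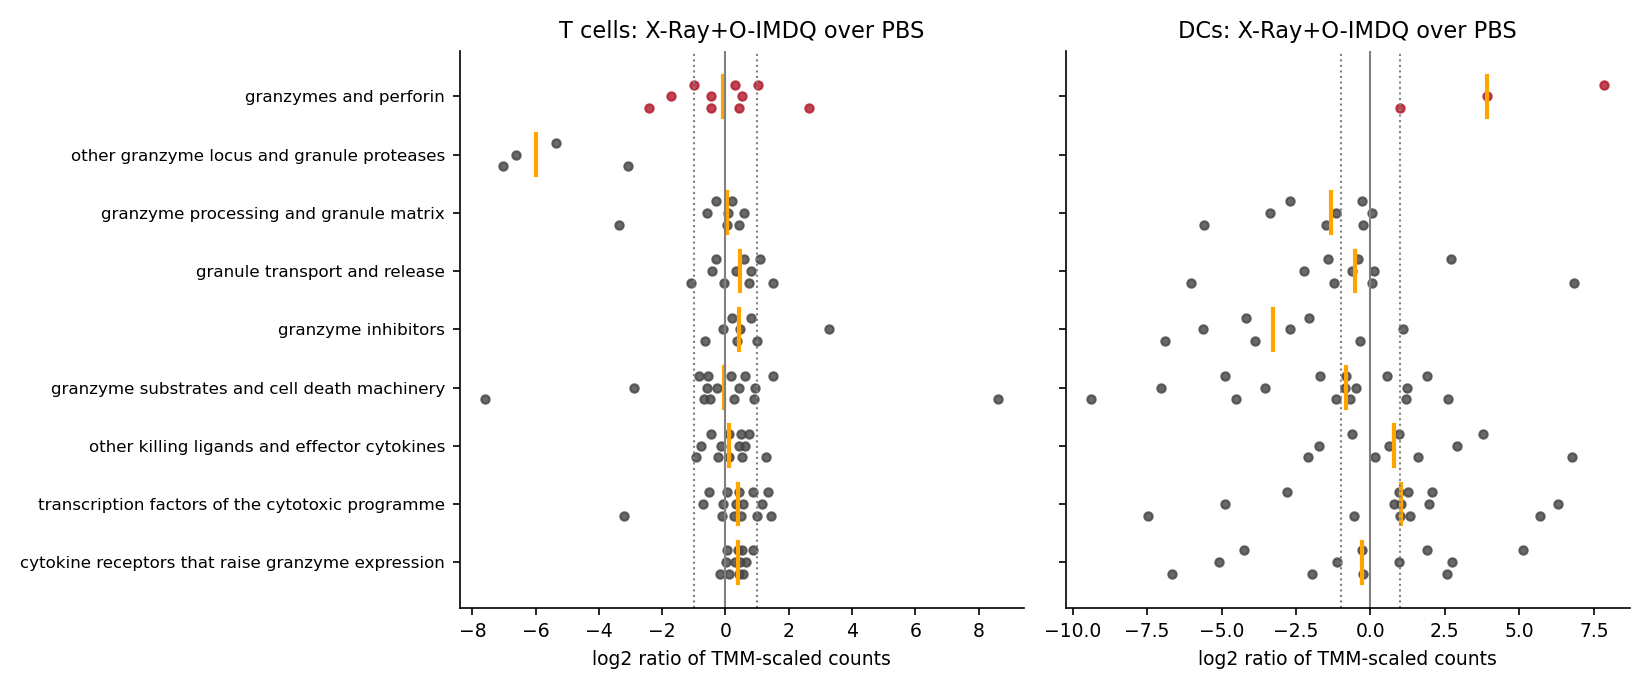
Log2 ratios of X-Ray+O-IMDQ over PBS for the granzymes and perforin (red) and for each list of related genes (grey), in T cells (left) and DCs (right); each point is a gene with at least 20 counts in either library, orange bars are medians and dotted lines 2-fold. In T cells most points of each list other than the neighbouring proteases lie within 2-fold, and in DCs they are more widely spread.

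In DCs the comparison asks whether the treated library held granzyme transcripts that the PBS library did not. Gzma, Gzmb and Gzmc were detected, and Prf1, Gzmd, Gzme, Gzmf, Gzmg, Gzmk and Gzmm had 0 counts in both DC libraries. All 3 detected genes were called higher in the treated library. Across 10316 genes with enough counts in DCs, 30.2% were called higher and 41.8% lower (72.0% in either direction), so a call in DCs is common. The 9 granzymes summed to 90.3 FPKM in treated DCs and 7.61 FPKM in PBS DCs.

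Gzma had 65.0 FPKM in treated DCs (919 counts) and 4.51 FPKM in PBS DCs (108 counts). That is 15-fold higher (12.3 to 18.5). Gzma was thus the leading granzyme in both DC libraries, where Gzmb led in both T cell libraries. Gzma made up 71.9% of the granzyme total in treated DCs and 59.3% in PBS DCs.

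Gzmb had 391 counts (19.4 FPKM) in treated DCs and 0 in PBS DCs. Where none is counted the limit is 3 counts, which is 0.0878 FPKM for Gzmb in PBS DCs. With 3 counts in PBS DCs the ratio of TMM-scaled counts was 230, and its counting interval began at 186. That bound is for counting error between single libraries and sets no minimum for the difference between treatments. By log2(CPM + 1) the log2 ratio was 4.85, against 7.85 by TMM. Of 6476 genes with at least 100 counts in treated DCs, 3.29% likewise had none in PBS DCs.

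Gzmc had 75 counts (5.97 FPKM) in treated DCs and 66 counts (3.10 FPKM) in PBS DCs. Its fold of 2.01 (1.42 to 2.83) was at the threshold. It was not called by total-count CPM, at a log2 ratio of 0.94, or by DESeq2 size factors, at 0.98.

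Prf1 at 0 counts in treated DCs allows up to 0.0826 FPKM, which is 0.0234% of its level in treated T cells. Levels in the 2 cell types come from separate tables and are set side by side without a test. In treated DCs Gzma stood at 8.85% of its level in treated T cells, Gzmb at 1.66% and Gzmc at 2.17%. In PBS DCs Gzma stood at 1.26% and Gzmc at 0.841% of PBS T cells. The proportions among the members therefore differed between the cell types, with Gzmb per Gzma at 0.298 in treated DCs and 1.59 in treated T cells.

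Lymphocyte markers were present in the DC libraries. Cd3d had 31.8 FPKM in treated DCs and 10.05 FPKM in PBS DCs, which is 2.10% and 0.523% of the matching T cell libraries. Cd3e and Cd247 were at 0 in both, and Cd3g had 1 count in treated DCs and 576 in PBS DCs. The 8 T cell markers in the tables summed to 77.6 CPM in treated DCs and 102.8 CPM in PBS DCs. Of them 6 had enough counts, with 2 called higher (Cd3d and Cd5) and 4 lower (Cd3g, Lck, Cd2 and Zap70). Cd5 had 278 counts in treated DCs and 1 in PBS DCs. Lck, Cd2 and Zap70 had 0 counts in treated DCs and 607, 574 and 255 in PBS DCs. Cd8b1 had 12.2 FPKM in treated DCs and 14.6 FPKM in PBS DCs, and Cd8a had 0 counts in treated DCs and 1 in PBS DCs. Of 9 markers of NK cells and innate lymphocytes, Ncr1, Klra8 and Itga2 were at 0 in both DC libraries. The 9 summed to 437 CPM in treated DCs and 297 CPM in PBS DCs, mostly Klrk1. Of them Klre1, Eomes and Xcl1 were called higher, and Klra4 was called lower, at 76 counts in treated DCs and 738 in PBS DCs. Mast cell and basophil markers were at 0 in both DC libraries except Kit. The part of lymphocyte RNA in the granzyme counts of the DC libraries was not tested.

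Of the related lists in DCs, 78 genes had enough counts, with 23 called higher and 32 lower. Over all genes tested in DCs, 30.2% were called higher and 41.8% lower, the background for this total and for each list. The median log2 ratio of the 78 genes was -0.45, against -0.36 over all genes tested. The list of granzyme and other protease inhibitors had 1 member higher and 6 lower of 8, at a median of -3.28. Serping1 was among the lower ones. Serpinb9, named after its values were seen, had 31 counts in treated DCs and 356 in PBS DCs. Serpinb1a had 4 counts in treated DCs and 344 in PBS DCs, while Serpinb6a was 2.12-fold higher in treated DCs. Among processing and matrix genes 0 were higher and 5 lower of 8. Ctsc, which is also abundant in myeloid cells, had 193 FPKM in treated DCs and 2087 FPKM in PBS DCs, and Cst7 had 8 counts in treated DCs and 673 in PBS DCs.

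For granule transport in DCs, 2 of 10 genes were higher and 4 lower, with Stx11 at 387 counts in treated DCs and 6 in PBS DCs and Lamp1 at a log2 ratio of -2.23. Among other killing ligands and effector cytokines 4 of 10 were higher and 2 lower. Ifng had 185 counts in treated DCs and 0 in PBS DCs, and Xcl1, a chemokine of NK and CD8+ T cells, had 116 and 15 counts. Fasl had 0 counts in treated DCs and 1 in PBS DCs. Transcription factors of the cytotoxic programme had 8 members higher and 3 lower of 14. Eomes had 135 counts in treated DCs and 0 in PBS DCs, and Prdm1 had 2 counts in treated DCs and 630 in PBS DCs. Cytokine receptors had 4 members higher and 5 lower of 12, and substrates and cell death genes 4 higher and 7 lower of 16.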

How the data were processed

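RNA-seq of 4 libraries, 1 per group, was analysed. Genome build GRCm39 is named in the submitters' processing notes, beside the tools RSEM 1.2.12, HISAT2 2.0.4, R 3.3.1 and DESeq2 1.24.0, and which tool did which step is unstated there. Per the file headers, the deposited tables hold raw read counts per gene and FPKM values. The FPKM deposited by the authors equal counts divided by listed gene length and library total, within a relative difference of 2.04e-07. Each column was assigned through the read file that a sample's description names, and its number can differ from that in the title: both PBS samples are titled replicate 2, and their read files and columns are numbered 1. The tables hold 4 further columns (2 libraries, 1 per cell type) that match no sample's read file, and these were not used here. Their headers differ from those of the PBS columns only in the number, 2 in place of 1.

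Counts were scaled within each cell type by TMM (edgeR 4.0.16, R 4.3.3). Ratios of treated over PBS have 95% intervals from the exact binomial (Clopper-Pearson) share of the 2 counts. Where 1 library had no count, 3 were used in its place. At least 20 counts in either library were required. No p-value was computed, since there is 1 library per group. The method was tested on simulated data with counting error only and planted changes of 4-fold and 8-fold. That test cannot speak to spread between libraries or to calls near 2-fold. Alternatives were upper-quartile scaling, size factors of DESeq2 1.42.0, total-count CPM, the deposited FPKM, scaling to Cd3 genes, minimums of 1 and 100 counts, log2(CPM + 1), and thresholds of 1.5-fold and 4-fold. Centring on the median and a minimum of 20 counts in both libraries were chosen after seeing the data.

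Members and lists were chosen with earlier results of these data known. Genes named were all members, the 4 most abundant of each list, and the 2 highest and 2 lowest called genes of each list by interval bound, of which some are reported, besides genes of the marker lists and the 5 genes nearest in pattern to Gzmb and to Prf1 (Fasl among them). Positions of genes are those in the tables. Promoters (RefSeq, GRCm38.p6) were matched by symbol for 10 of 10 members, and transcripts came from GENCODE M21. Both strands were searched for 8 motifs in the 250 bases before each start.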

Additional observations from a re-analysis of the deposited data

Results flagged for a closer look

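Gzmc lay on opposite sides of a ratio of 1 in the 2 cell types, with both counting intervals excluding it. Its log2 ratio of treated over PBS was 1.0 in DCs, from 75 counts in treated DCs and 66 in PBS DCs. In T cells it was -0.45, from 4542 counts in treated T cells and 6148 in PBS T cells. The difference between the cell types was not tested, as each group has 1 library.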

How the results depend on the processing

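No member's ratio changed direction under any alternative that gave it a value. Gzmb in DCs, being 0 in PBS, gave no value with 20 counts required in both libraries. The Gzmc call in DCs was lost by total-count CPM and the deposited FPKM (log2 ratio 0.94 each), DESeq2 size factors (0.98), log2(CPM + 1) (0.75) and the 4-fold threshold (1.0). In T cells, Gzma was not called by upper-quartile scaling (0.92) or at 4-fold (1.0). Gzmd was not called by total-count CPM or FPKM (-0.98 each), log2(CPM + 1) (-0.97), 4-fold (-1.01), centring on the median (-0.94) or Cd3 scaling (-0.73), and Gzmf was not called at 4-fold (-1.74). Losses at 4-fold follow from the threshold itself, and for the others the cause was not tested.

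At 4-fold, the T cell counts were 1003 genes higher and 1774 lower, against 2025 and 2805 at 2-fold, and 1922 genes were higher in DCs, against 3112. With 20 counts in both libraries, which removes genes at 0, 1378 genes were lower in T cells and 1825 in DCs, against 4317 in DCs at first. Related list genes called higher in T cells numbered 23 at 1.5-fold and 2 at 4-fold, against 10, and 16 were lower at 1.5-fold, against 9. In DCs, 12 list genes were higher at 4-fold, against 23. Gzmb made up 54.6% of granzyme counts in treated T cells and 46.8% in PBS T cells, against 45.9% and 37.2% of FPKM, since FPKM divides counts by gene length. No paired analysis was possible because each group has 1 library, and the treated and PBS libraries compared share no replicate number. DCs and T cells share 1 number for each treatment, which is too few for a block, and were set side by side without a test. The depth of 1 library per group sets counting error only; the spread between mice is unknown here.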

Other observations

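Genes whose levels over the 4 libraries were most like those of Gzmb and Prf1 were found by the largest deviation in centred log2(FPKM + 1), among 3404 genes with a mean of at least 10 FPKM. With 4 libraries of 2 cell types this is a description. The 5 nearest to Prf1 were Fasl, Sit1, Sh2d2a, Cxcr6 and Cd8a, with largest deviations from 0.32 to 0.70. Sit1 and Cxcr6, a T cell signalling adaptor and a chemokine receptor, had 0 FPKM in both DC libraries, as did Prf1. Sit1 had 179 FPKM in treated T cells and 137 FPKM in PBS T cells, and Cxcr6 had 887 FPKM and 708 FPKM in the same order. The 5 nearest to Gzmb were Ifng, Rgs16, Gzma, Ctla4 and Xcl1, with deviations from 1.42 to 2.0, so the match was looser. Ifng had 10.2 FPKM in treated DCs and 0 in PBS DCs, and 245 FPKM in treated T cells against 143 FPKM in PBS T cells.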
